A study of Homo sapiens with 4 samples.

Results

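A375 and SK-MEL-28 are human melanoma lines, and the comparison described here is between the 2 lines, each transfected with a negative control siRNA and collected 48 h later. Both are established lines that carry an activating mutation of the kinase BRAF, and each is a single line from a single tumour, so a difference between them is a difference between these 2 cultures and not between kinds of melanoma. The 2 arrays were taken from a study of 4 arrays in which the same lines also received an siRNA against the transcription factor ZIC5, so transfection with an siRNA is common to all 4 groups. Each group was 1 array (HG-U133 Plus 2.0) of biotinylated cRNA made from 100 ng of total RNA. Each gene was read from 1 probe set, chosen among those that name a single gene as the one highest on average over all 4 arrays, and the line difference was the log2 intensity of A375 minus that of SK-MEL-28. Of 19775 genes, the 13794 whose mean log2 intensity reached 5 (an intensity of 32) were described.

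Melanoma cells arise from melanocytes, pigment cells that come from the neural crest. In melanocytes the factors MITF, SOX10 and PAX3 drive the genes of the melanosome, the organelle in which melanin is made. Melanoma cells differ in how much of this programme they keep, and lines that have lost much of it often carry high levels of the receptor AXL and of genes for matrix, secreted factors and cell shape. The RAF, MEK and ERK kinases form the MAPK pathway, which a mutant BRAF keeps active, and its output includes dual-specificity phosphatases and Sprouty proteins that dampen the same pathway.

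Intensities were on a linear scale, from 2.78 to 22531, with medians over all probe sets between 38.4 and 39.4 on the 4 arrays. Between 44.7% and 45.3% of probe sets were under 32 on each array, a range near background in which ratios are uncertain. The median line difference over the genes described was 0.03 (log2) under control siRNA and 0.01 on the ZIC5 siRNA arrays. Of 25 reference genes for general cell functions, 0 were at least 2-fold higher in A375 and 1 (RAB7A, with 3 of its 5 probe sets in that direction) in SK-MEL-28. Levels are RMA intensities, and differences are log2 values of A375 minus SK-MEL-28. A pair of levels gives A375 and then SK-MEL-28, under control siRNA unless stated otherwise. A pair in parentheses that follows another pair for the same gene gives the lines under ZIC5 siRNA.

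The lines were far apart. At least 2-fold differences under control siRNA were found in 3061 genes, 22.2% of those described. Of these, 1518 (11.0% of those described) were higher in A375 and 1543 (11.2%) were higher in SK-MEL-28. The last 2 shares are the background for the 2-fold counts of the gene lists below. A difference of at least 4-fold was found in 970 genes (7.03%), 426 higher in A375 and 544 higher in SK-MEL-28, and one of at least 16-fold in 231 (1.67%), 99 and 132. The lower line was under 32 for 526 of the 3061 genes (17.2%), 301 of them higher in A375 and 225 higher in SK-MEL-28. For such genes the size of the ratio is uncertain, and where a ratio of such a gene is printed it is given with intensities under 32 set to 32 (the floor). With that floor the counts were 1473 and 1517. Among 1556 of the 2-fold genes with several probe sets at the level minimum, all probe sets pointed the same way in 1375. The size could still vary between them, as from -1.73 to -0.24 (log2) in MCAM and from -1.16 to -0.12 in DUSP4.

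With 1 array a group, the control pair has no replicate error and no p-value. The 2 ZIC5 siRNA arrays are a second, separate pair of the same lines, so they show how far a line difference recurred on other arrays, although under another transfection. Of the 1518 genes at least 2-fold higher in A375 under control siRNA, 1075 (70.8%) were so on the second pair as well, which is 7.79% of all genes described, and 0 were at least 2-fold higher in SK-MEL-28. Of the 1543 genes at least 2-fold higher in SK-MEL-28, 1167 (75.6%) recurred, which is 8.46% of all genes, and 8 were at least 2-fold higher in A375 instead. The 2 differences correlated across genes, whose values are not independent of each other, at 0.895 (Pearson) and 0.80 (Spearman). A limma fit on all 4 arrays, with the siRNA as a block and 1 residual degree of freedom per gene, gave the test of the line difference. It called 3816 of 13794 genes (27.7%) at an adjusted p under 0.05, 1963 higher in A375 (14.2%) and 1853 higher in SK-MEL-28 (13.4%), with 0.0022 as the lowest adjusted p. The labels do not state that the 4 samples are separate cultures, so these p-values are not taken to measure the spread between cultures. The residual of the fit is the change of a gene's line difference between the 2 pairs. It holds the spread between arrays together with any response to the ZIC5 siRNA that differed between the lines, and these cannot be told apart. A gene is said to have passed where it had a limma adjusted p under 0.05, after Benjamini-Hochberg adjustment over all genes. The list members named passed unless stated otherwise, leaving aside the reference genes and the markers of other cell types. Most named genes were picked for wide differences on the control arrays, which the fit includes, so their passing is not separate support.

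**Figure D1:**
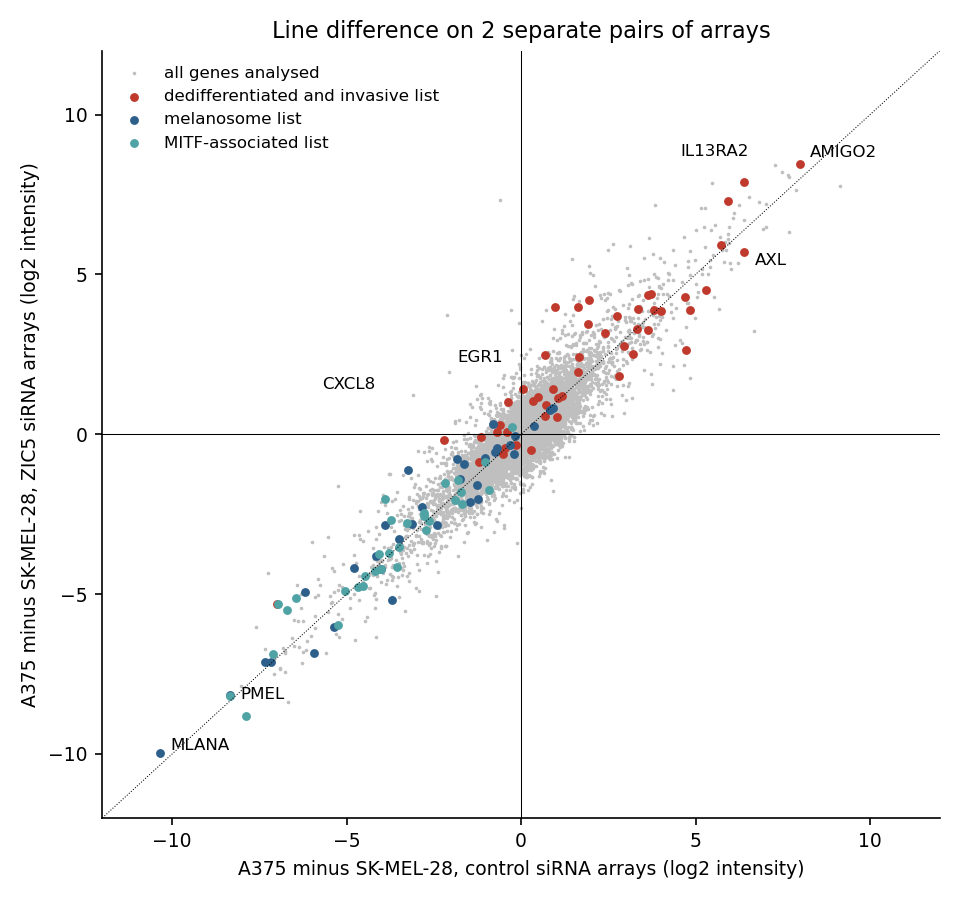
Line difference of each gene (A375 minus SK-MEL-28, log2 intensity) under control siRNA on the x axis and on the ZIC5 siRNA arrays on the y axis, 1 point per gene, with 3 gene lists in colour and a dotted line where both are equal. The melanosome and MITF-associated genes extend down to MLANA at -10.36 and -9.99, the dedifferentiated and invasive genes up to AMIGO2 at 7.98 and 8.47, and CXCL8 and EGR1 lie above 0 on the y axis and below 0 on the x axis.

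The markers that define a melanocyte were high in SK-MEL-28 and low in A375. All 10 measured markers were at least 2-fold higher in SK-MEL-28 under control siRNA, with a median difference of -4.09 (-4.26 on the second pair). Their summed intensity was 2309 in A375 against 50431 in SK-MEL-28, and 9 of the 10 passed. MLANA, an antigen of melanocytes that resides in melanosomes, was under 32 in A375, and PMEL, the protein of the fibrils on which melanin is laid down, was barely over it. The melanocyte markers highest in A375 were SOX10 at 895, S100B at 413, MITF at 357, TFAP2A at 238, PAX3 at 213 and MC1R at 107. Some markers of other cell types had levels of the same size in A375, among them LYZ at 434, KRT14 at 358 and CD79A at 139. These levels alone therefore do not set the lineage of A375.

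Markers of other cell types had sums of the same order in both lines. The summed intensity over members with a probe set was 5785 in A375 against 5572 in SK-MEL-28 for 11 keratinocyte markers. It was 1091 and 1412 for 13 fibroblast markers, 431 and 365 for 10 endothelial markers, and 989 and 750 for 13 leukocyte markers. Of these, 9, 7, 6 and 7 reached the level minimum, and the sums include the others. Most of the keratinocyte sum was KRT10 (2958 and 1493) and PERP (1754 and 3376), which are not limited to keratinocytes. Single markers ran from near 32 in both lines, as for CD3D (36.6 and 30.5), CLDN5 (52.7 and 51.4), KRT1 (40.6 and 43.5) and PDGFRB (56.5 and 41.4), to well above it. The keratinocyte markers SFN (332 and 239.8) and KRT15 (179 and 211), the fibroblast marker COL1A1 (190.2 and 159) and the B cell marker CD79A (139 and 127) were among the latter. The exceptions at least 2-fold higher in A375 were KRT14 (358 and 32.1), LYZ (434 and 37.4), CORO1A (129.6 and 55.6), KDR (56.9 and 19.6), COL6A3 (352 and 105) and TWIST2 (127 and 21.0). Those at least 2-fold higher in SK-MEL-28 were LUM (162 and 875), LCP2 (32.1 and 165) and FCER1G (63.9 and 179). TWIST2 did not pass (limma adjusted p = 0.11). On both control arrays 2 of the 11 keratinocyte, 6 of the 13 fibroblast, 3 of the 10 endothelial and 6 of the 13 leukocyte markers with a probe set were under 32. The part of such markers in the line differences was not tested. In whole cultures, fewer cells that express a gene and less RNA per cell cannot be told apart.

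**Figure D2:**
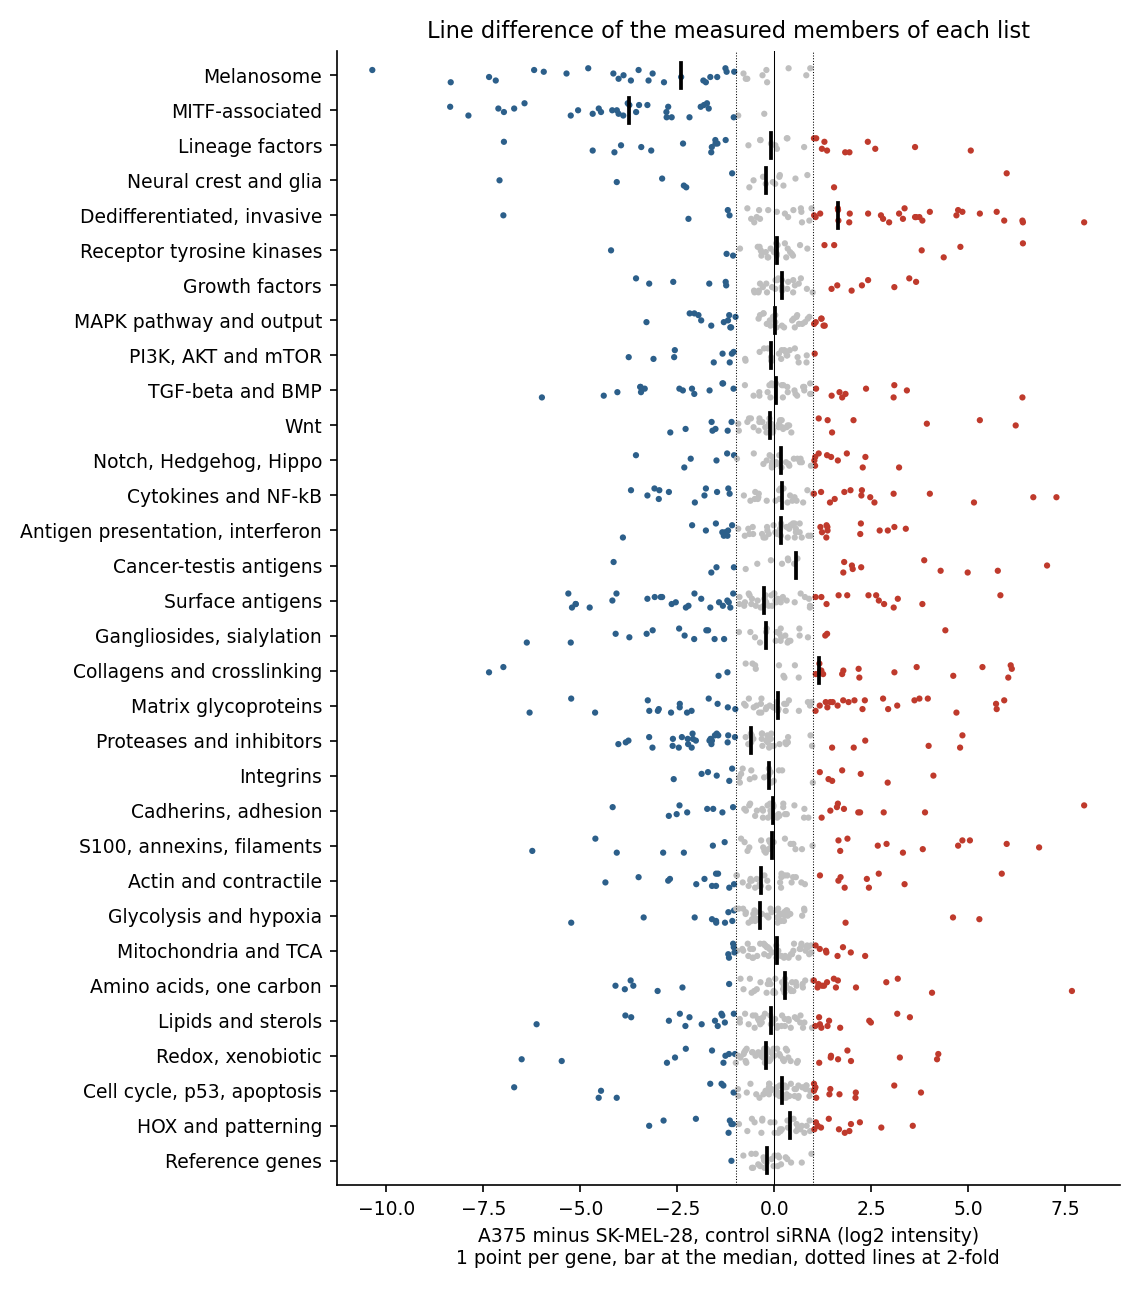
Line difference (A375 minus SK-MEL-28, log2 intensity, control siRNA) of the measured members of each gene list, 1 point per gene, with a bar at the list's median and dotted lines at 2-fold. Red points are at least 2-fold higher in A375 and blue points at least 2-fold higher in SK-MEL-28. The medians of the melanosome list (-2.40) and the MITF-associated list (-3.76) lie farthest to the left, and those of the dedifferentiated and invasive list (1.64) and the collagens (1.16) farthest to the right.

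Among the factors that set melanocyte identity, SK-MEL-28 carried more MITF, SNAI2, IRF4, SOX6, TFAP2A, ZEB2 and PAX3, and A375 carried more TFAP2B, ZEB1, SOX5, FOXD1 and SOX2. The lineage list of 33 measured factors therefore parted both ways, with 11 at least 2-fold higher in A375 and 13 higher in SK-MEL-28 and a median of -0.09. MITF, the master regulator of the melanocyte, measured 357 in A375 against 6205 in SK-MEL-28 (235 and 5089). Both SK-MEL-28 arrays were thus far above both A375 arrays, with a 17.4-fold ratio under control siRNA with a limma difference of -4.28 ± 0.16 (SE) and an adjusted p of 0.0028. SNAI2, a zinc-finger repressor that melanocytes keep, measured 21.6 and 2707 (76.9 and 3021), 84.6-fold with the floor. IRF4, which acts with MITF on the tyrosinase gene, measured 37.4 and 959 (39.9 and 1103). Neither line's arrays overlapped with the other's for these genes. Here and below, most genes were named for wide control differences. Of the 970 genes at least 4-fold apart, 967 kept their direction on the second pair. The share of all genes without overlap was not counted. SOX6 measured 52.8 and 816 (116 and 434), TFAP2A 238 and 2566 (408 and 2321), and PAX3 213 and 1088 (333 and 1397).

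The zinc-finger factors of the ZEB family went in opposite directions. ZEB2, the form found in melanocytes, measured 92.9 in A375 against 838 in SK-MEL-28 (75.1 and 414). ZEB1, associated with loss of differentiation, measured 409.98 and 33.2 (578 and 60.5), 12.3-fold higher in A375. TFAP2B, a relative of TFAP2A, measured 273 and 8.17 (326 and 15.1), so both SK-MEL-28 arrays were under 32 and the ratio was 33.4, and 8.52 with the floor. SOX5, which can oppose SOX10 at melanocyte genes, measured 1468 and 277 (845 and 147). SOX10 itself was less far apart. It measured 895 in A375 against 2135 in SK-MEL-28 under control siRNA but 1659.7 and 1919 under ZIC5 siRNA, and it did not pass (difference -0.73 ± 0.30, limma adjusted p = 0.15). FOXD1 (990.4 and 259) and SOX2 (456 and 129) passed. SOX9 was 62.0 and 26.5 under control siRNA and 34.0 on both ZIC5 siRNA arrays and did not pass. LEF1, a partner of beta-catenin, was 804 and 2300.3 (625 and 5203), with 2 of its 3 probe sets in that direction.

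**Figure D3:**
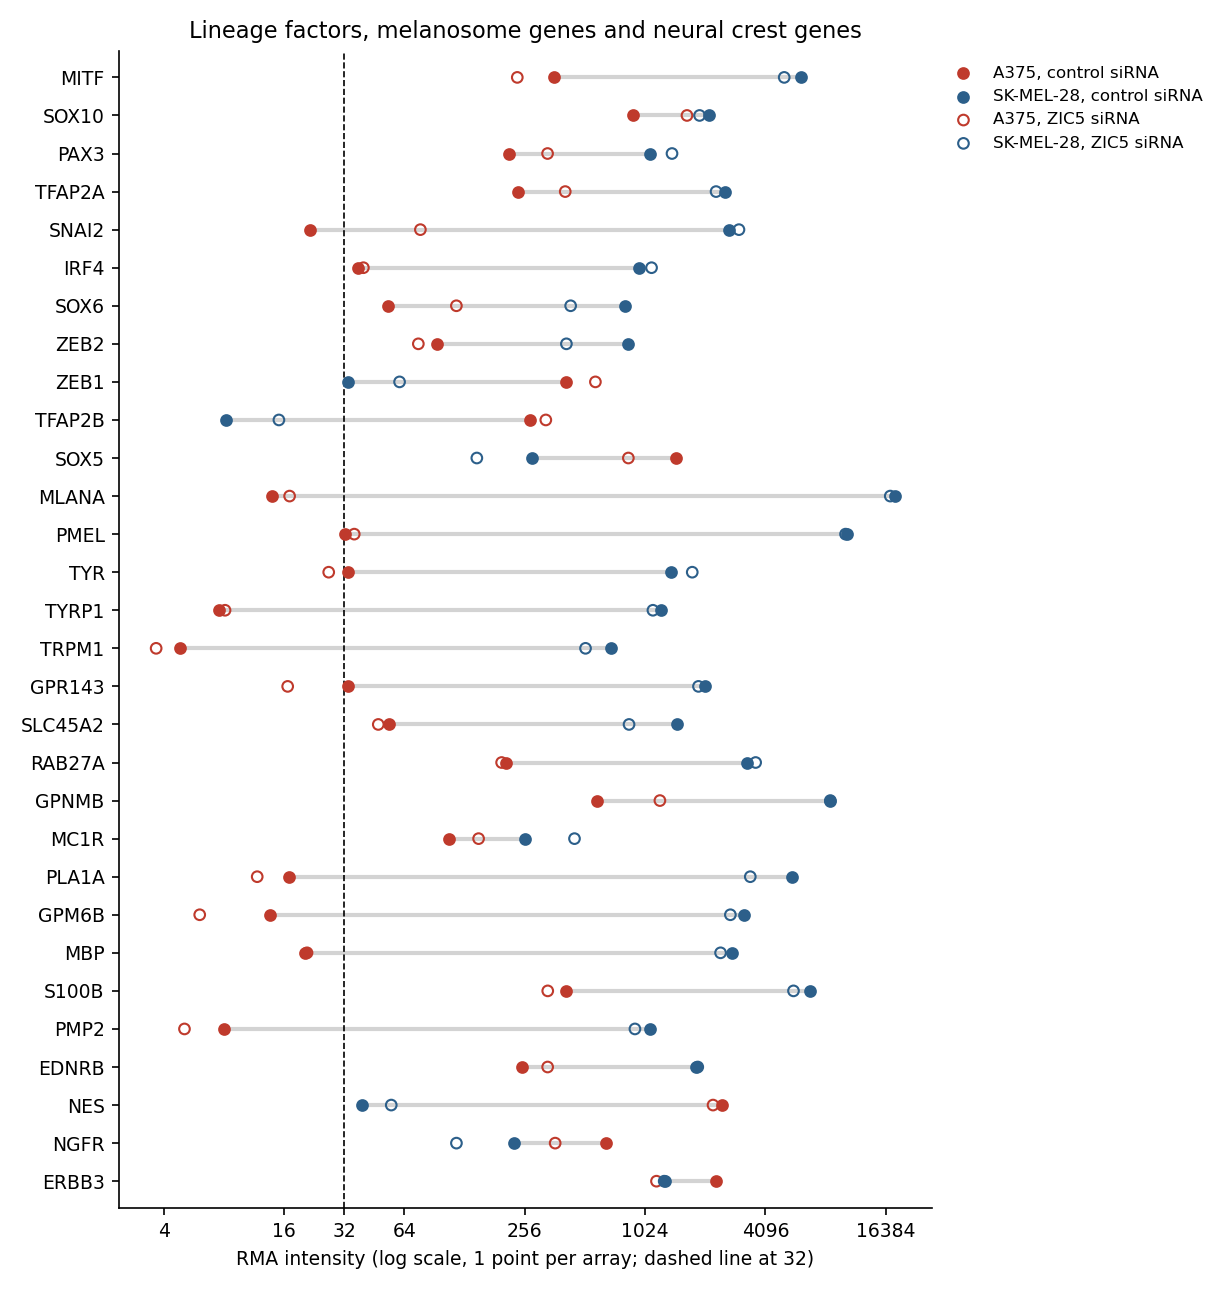
RMA intensity (log axis) of lineage factors, melanosome and MITF-associated genes and neural crest genes on each of the 4 arrays; filled points are control siRNA, open points ZIC5 siRNA, and a line joins the 2 control arrays. An open point that cannot be seen lies under a filled one. MLANA shows the widest gap, from 13.9 in A375 to 18212 in SK-MEL-28, whereas SOX10 and ERBB3 lie close together.

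The genes of the melanosome were mostly higher in SK-MEL-28. Of 33 measured members, 24 (72.7%) were at least 2-fold higher in SK-MEL-28 and 0 in A375, 21 of them on both pairs, and the median was -2.40 (-2.12 on the second pair). By limma 22 passed as higher in SK-MEL-28 and 2 as higher in A375. MLANA measured 13.9 in A375 against 18212 in SK-MEL-28 (17.0 and 17272), a ratio of 569 with the floor and the widest difference of any gene described. Its limma difference was -10.17 ± 0.19 with an adjusted p of 0.0022. PMEL measured 32.4 and 10484 (35.9 and 10317). Both SK-MEL-28 arrays were far above both A375 arrays for each.

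The tyrosinase family genes TYR and TYRP1 were high in SK-MEL-28 and near or under 32 in A375. TYR, tyrosinase, catalyses the first step of melanin synthesis and measured 33.5 in A375 against 1373 in SK-MEL-28 (26.7 and 1764). TYRP1, which acts later in the brown-black branch of the pathway, measured 7.51 and 1226 (8.10 and 1121), 38.3-fold with the floor. Membrane proteins of the organelle were also measured. SLC45A2 measured 53.4 and 1482 (47.3 and 851), the channel gene TRPM1 4.80 and 695 (3.66 and 516), and GPR143, a receptor in the melanosome membrane, 33.4 and 2051 (16.7 and 1895). CAPN3, a protease gene with melanocyte transcripts, measured 31.8 and 2319.9 (44.4 and 1347).

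RAB27A and MLPH, which move melanosomes, were also lower in A375, but not at the floor. RAB27A, the GTPase that tethers the mature organelle, measured 206 and 3320.3 (196 and 3662), and MLPH, its adaptor to myosin, 239.97 and 4256 (309.6 and 4368). GPNMB, a glycoprotein related to PMEL, measured 586 and 8672 (1215 and 8658). The smaller gaps of the list included CD63, a tetraspanin of lysosomes and melanosomes, at 4971 and 15605, and MC1R, the receptor for the pigment hormone, at 107 and 256. All melanosome genes named passed.

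MITF binds the sequence CATGTG, found near the start of pigment genes, and the RefSeq promoter table (GRCh38.p14) was searched for these letters. A window was the 250 bases before a start. In the melanosome list, 13 of 52 windows (25%) held CATGTG on either strand, in 11 of 25 genes with a window, among them TYR, TYRP1, TRPM1, GPR143, GPNMB, MC1R and OCA2. Over all genes described, 1067 of 16059 windows did (6.64%). CACGTG, another E-box that MITF binds, was in 7 of 52 melanosome windows (13.5%) and in 1295 over all genes (8.06%). Among genes at least 16-fold apart, 24 of 190 windows of genes higher in SK-MEL-28 held CATGTG (12.6%) and 10 of 100 of genes higher in A375 (10%). Counted by gene, since a gene can have several windows, these were 21 of 101 and 10 of 73, against 981 of 11046 over all genes. Among genes at least 2-fold apart the shares of windows with CATGTG were 7.99% for SK-MEL-28 and 6.91% for A375, both close to that over all genes. By gene these were 147 of 1248 and 111 of 1206. For CACGTG they were 8.77% and 7.07%, and at 16-fold 9.47% and 5%. The last 160 bases before the start of 4 melanosome genes are printed to show where the match lies, in capitals (CATGTG, or CACATG where it is on the other strand). They are chr11:89177715-89177874 (plus strand) for TYR, chr9:12693225-12693384 (plus) for TYRP1, chr15:31161161-31161320 (minus) for TRPM1 and chrX:9765848-9766007 (minus) for GPR143. A match is a description of letters and was not measured as a bound site.
TYR: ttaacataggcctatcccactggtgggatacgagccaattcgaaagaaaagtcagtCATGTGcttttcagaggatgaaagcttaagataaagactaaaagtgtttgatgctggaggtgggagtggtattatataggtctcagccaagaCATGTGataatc
TYRP1: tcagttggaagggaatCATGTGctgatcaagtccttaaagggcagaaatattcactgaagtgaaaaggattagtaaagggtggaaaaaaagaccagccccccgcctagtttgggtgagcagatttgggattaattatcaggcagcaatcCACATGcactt
TRPM1: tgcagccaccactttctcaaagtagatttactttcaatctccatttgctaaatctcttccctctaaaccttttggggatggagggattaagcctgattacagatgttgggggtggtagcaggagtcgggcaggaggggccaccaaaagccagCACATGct
GPR143: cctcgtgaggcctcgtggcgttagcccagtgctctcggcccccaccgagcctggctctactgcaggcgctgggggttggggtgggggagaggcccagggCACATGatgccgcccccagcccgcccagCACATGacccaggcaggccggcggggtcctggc

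In these stretches the match nearest to the start began 12 bases before it in TYR, 11 in TYRP1, 8 in TRPM1 and 33 in GPR143. TYR held another match 104 bases before its start, TYRP1 144 bases and GPR143 61 bases before theirs. All 4 genes were at least 16-fold higher in SK-MEL-28 under control siRNA, also with intensities under 32 set to 32.

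Genes that tend to follow MITF in melanoma were lower still in A375 by the list median. The list is not separate from the melanosome list, since RAB27A is in both. Of 32 measured MITF-associated genes, 30 (93.8%) were at least 2-fold higher in SK-MEL-28 and 0 in A375, with a median of -3.76 (-3.61 on the second pair), and 31 passed as higher in SK-MEL-28. PLA1A, a secreted phospholipase, measured 17.0 and 5549 (11.7 and 3442). GPM6B, a membrane proteolipid also found in glia, measured 13.6 and 3217 (6.05 and 2737), and MBP, the gene of myelin basic protein, 20.3 and 2799.9 (20.8 and 2444). All A375 arrays were under 32 for these 3 genes, and with the floor the ratios were 173, 101 and 87.5. BCL2A1, an anti-apoptotic BCL2 relative that MITF activates, measured 43.2 and 4507 (140.1 and 6306). BIRC7, another inhibitor of apoptosis, measured 73.7 and 1629 (99.99 and 2165), and CEACAM1, an adhesion molecule, 24.8 and 2148 (45.6 and 1575).

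Neural crest and glial genes were split. Of 19 measured, 2 (10.5%) were at least 2-fold higher in A375 and 6 (31.6%) higher in SK-MEL-28 (median -0.22 on both pairs). The shares over all genes were 11.0% and 11.2%. PMP2, a myelin lipid carrier of Schwann cells, measured 7.99 in A375 against 1083 in SK-MEL-28 (5.07 and 911), and S100B 413 and 6887 (334 and 5664). EDNRB, the endothelin receptor that melanoblasts need, measured 247 and 1834 (333 and 1879). The 2 genes at least 2-fold higher in A375 were NES and NGFR. NES, the intermediate filament of neural progenitors, measured 2476 and 39.1 (2241 and 55.0), and NGFR, the low-affinity neurotrophin receptor that marks neural crest stem cells, 656 and 226 (363 and 116). These 5 genes passed, and for each the arrays of the lines did not overlap, but they were named for wide control differences.

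Genes of the dedifferentiated and invasive state were often higher in A375. Of 49 measured members, 29 (59.2%) were at least 2-fold higher in A375 and 4 higher in SK-MEL-28, with a median of 1.64 (2.49 on the second pair), and 28 and 1 were so on both pairs. By limma 30 passed as higher in A375 and 2 as higher in SK-MEL-28. AXL, a receptor kinase that marks this state, measured 4773 in A375 against 56.4 in SK-MEL-28 (2016 and 38.9). Its ratio under control siRNA was 84.6 and its limma difference 6.05 ± 0.25, with an adjusted p of 0.0028. AMIGO2, a leucine-rich adhesion protein, measured 4733 and 18.7 (4304 and 12.2), 148-fold with the floor. WNT5A, the ligand of non-canonical Wnt signalling, measured 525 and 13.4 (867 and 37.6), and NRP1, a co-receptor for VEGF and semaphorins, 919 and 65.4 (2037 and 138). For all 4 genes both A375 arrays were above both SK-MEL-28 arrays.

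The list also held genes that went the other way or did not part. LOX, a collagen-crosslinking oxidase often counted with the invasive state, measured 5.10 in A375 against 644 in SK-MEL-28 (7.32 and 293), 20.1-fold higher in SK-MEL-28 with the floor. EGFR measured 60.4 and 67.4 (42.6 and 54.2), with 3 of 5 probe sets on that side, and did not pass (limma adjusted p = 0.30). CAV1, the coat protein of caveolae, measured 2850.2 and 2362 (1352 and 1891), so the order of the lines differed between pairs, and it did not pass.

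Receptor tyrosine kinases differed by member. Of 32 measured, 6 (18.8%) were at least 2-fold higher in A375 and 3 (9.38%) higher in SK-MEL-28, against 11.0% and 11.2% over all genes. The median was 0.06 on both pairs. Eph receptors differed widely by member. EPHA2 measured 1389 and 50.1 (1562 and 41.1), EPHA3 661 and 47.6 (656 and 38.0), and EPHA7 198 and 9.63 (404 and 7.40), all higher in A375. EPHA4 measured 131 and 307 (177 and 282), 2.35-fold higher in SK-MEL-28 under control siRNA with all 4 probe sets on that side, and did not pass (limma adjusted p = 0.052). MERTK, like AXL a TAM receptor, ran opposite to AXL at 11.0 and 204 (12.4 and 186), 6.36-fold higher in SK-MEL-28 with the floor. PROS1, the protein S ligand that TAM receptors bind, was on the side of MERTK at 155 and 1839 (130.3 and 1562). FGFR1 measured 216 and 88.2 (291 and 149), with 5 of its 6 probe sets higher in A375. Other receptors were closer: MET measured 1771 and 1337 (2541 and 1104), IGF1R 757 and 955 (709 and 860.4), and ERBB3, the neuregulin receptor, 2320.3 and 1287 (1168 and 1276). None of these 3 passed (limma adjusted p of 0.086, 0.22 and 0.41).

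Growth factor ligands went both ways. Of 39 measured growth factors, 8 (20.5%) were at least 2-fold higher in A375 and 6 (15.4%) higher in SK-MEL-28. The shares over all genes were 11.0% and 11.2%. The same 8 and 6 counts held on both pairs, with 10 and 6 passing. TGFA, a ligand of EGFR, measured 4142 in A375 against 372 in SK-MEL-28 (3078 and 213). PDGFC measured 427 and 34.0 (433 and 21.2), VEGFC, a lymphatic growth factor, 221 and 41.4 (444 and 49.4), and EFNB2, a ligand of Eph receptors, 540.2 and 63.4 (930.2 and 29.2). PDGFD, in contrast, was higher in SK-MEL-28 at 155 and 366 (30.2 and 107). EGF (24.8 and 151) and NRG3 (9.25 and 86.5) were also higher in SK-MEL-28, each with A375 under 32.

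In the MAPK pathway, 6 of 41 measured genes (14.6%) were at least 2-fold higher in A375 and 12 (29.3%) higher in SK-MEL-28. The shares over all genes were 11.0% and 11.2%. On both pairs only 4 and 5 were so, where the shares over all genes were 7.79% and 8.46%. Passing genes numbered 8 in each direction, against 14.2% and 13.4% over all genes. MYC, a growth factor-responsive transcription factor, measured 182 and 1784 (235 and 1739), 9.82-fold higher in SK-MEL-28, with a limma difference of -3.09 ± 0.19 and an adjusted p of 0.0045. SPRY1, a feedback inhibitor, measured 145 and 660.3 (102 and 610.04), and ETV5, an ETS factor induced by ERK, 729 and 2251 (925 and 2358). The dual-specificity phosphatases of the pathway differed by member. DUSP6, which removes phosphate from ERK, measured 2335 and 1351 (5674 and 2434), and DUSP7 357 and 145 (189.8 and 78.9), both higher in A375, whereas DUSP4 was higher in SK-MEL-28 at 997 and 2234 (1916 and 3109). CCND1, cyclin D1, measured 3752 and 4068 (3140.2 and 5802) and did not pass. The immediate-early genes did not keep their side: EGR1 measured 186 and 778 under control siRNA but 4152 and 1065 under ZIC5 siRNA, and FOS 42.4 and 157 against 231 and 172. Neither passed (limma adjusted p of 0.98 and 0.44).

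Of 31 measured PI3K, AKT and mTOR genes, 1 was at least 2-fold higher in A375 and 9 (29%) higher in SK-MEL-28. All genes together gave 11.0% and 11.2%. Of the 9, 7 were so on both pairs, although the list median was -0.08. PIK3R3, a regulatory subunit of PI3K, measured 188 in A375 against 2533 in SK-MEL-28 (178 and 2669). The catalytic subunit genes PIK3CD (339.5 and 2009) and PIK3CB (392 and 1157) and the regulatory PIK3R1 (130.2 and 328) were higher in SK-MEL-28 too. SGK1, a kinase related to AKT, measured 885 and 7668 (1524 and 9303). These 5 genes passed. INPP4B, a lipid phosphatase, measured 496 and 1101 but 1159.5 and 1195 under ZIC5 siRNA, and SESN3, a stress-induced inhibitor of mTOR signalling, 45.9 and 275 but 584 and 1003. Neither of these passed.

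**Figure D4:**
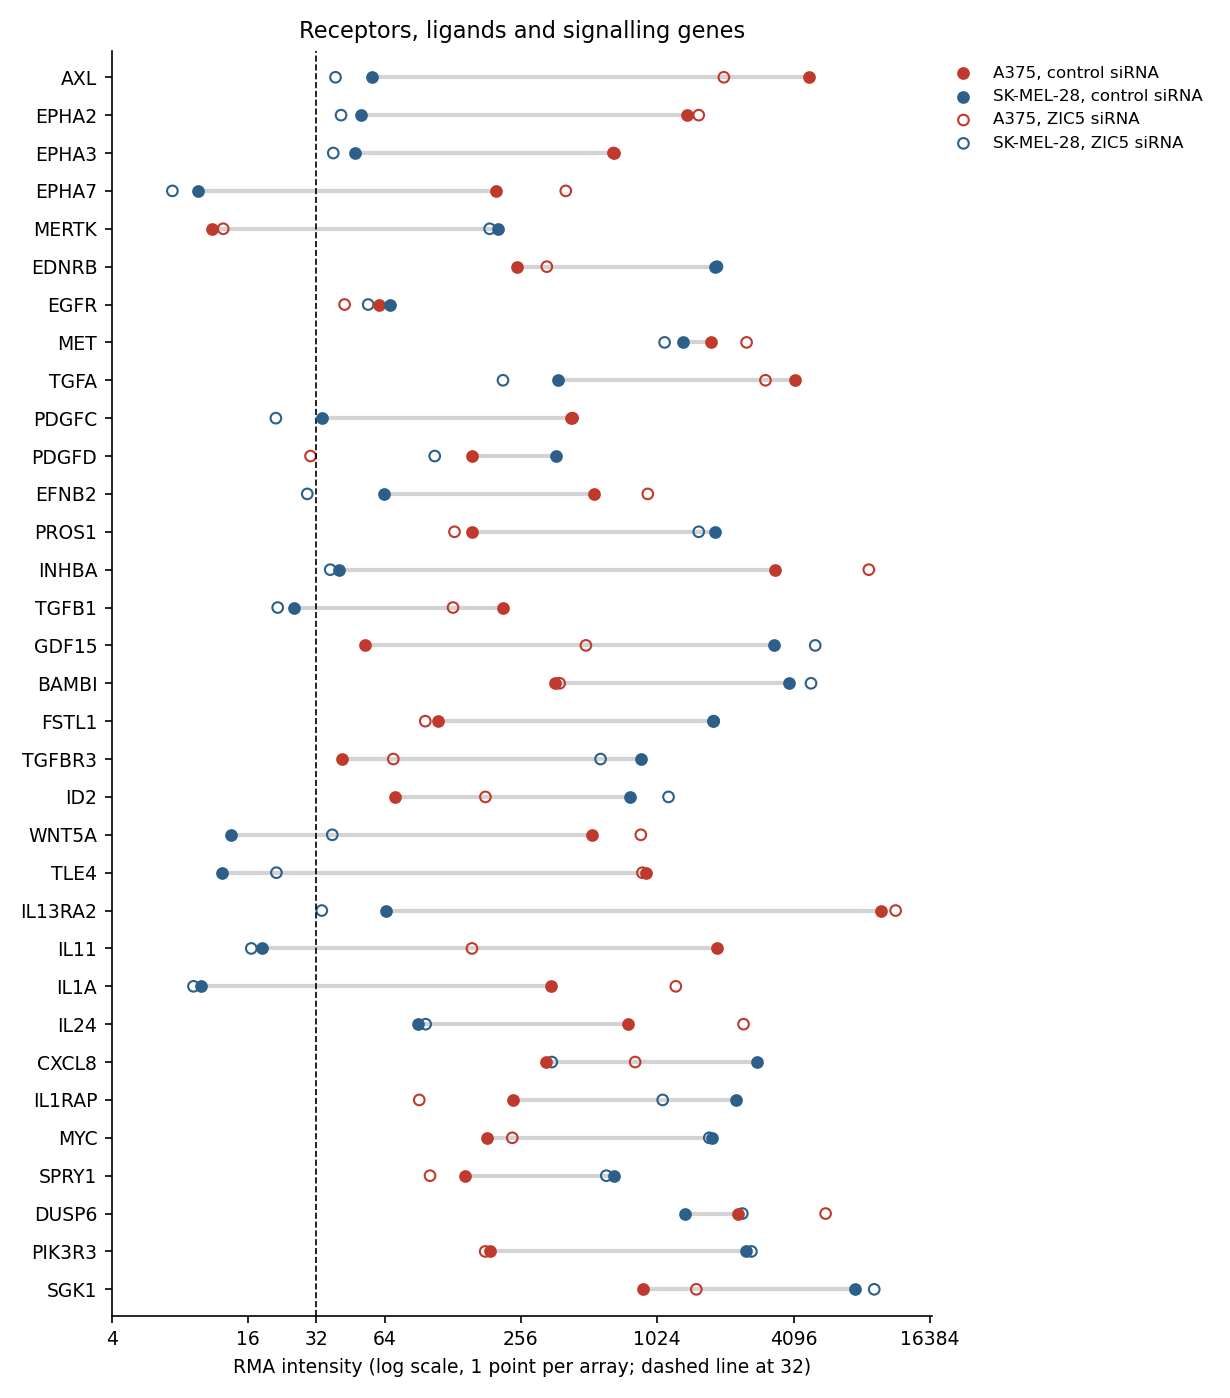
RMA intensity (log axis) of receptors, ligands and signalling genes on each of the 4 arrays; filled points are control siRNA, open points ZIC5 siRNA, and a line joins the 2 control arrays. AXL, EPHA2 and IL13RA2 are high in A375, MERTK, PROS1 and MYC are high in SK-MEL-28, EGFR is low in both, and for CXCL8 the 2 lines change places between the pairs.

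TGF-beta and BMP genes were apart in both directions, 10 of 49 (20.4%) at least 2-fold higher in A375 and 15 (30.6%) higher in SK-MEL-28. The shares over all genes were 11.0% and 11.2%, and the list median was 0.04. A375 carried more of the ligand genes INHBA and TGFB1 and SK-MEL-28 more of GDF15. INHBA, the activin A subunit, measured 3386 and 40.4 (8805 and 36.8), and TGFB1 214 and 25.5 (128 and 21.6). GDF15, a stress-induced relative of TGF-beta, measured 52.7 and 3348 (496 and 5106). On the receptor side, SK-MEL-28 was higher for TGFBR3, the co-receptor betaglycan (41.4 and 871), BMPR1B (15.3 and 168), BAMBI, a decoy receptor (362 and 3922), and the activin- and BMP-binding FSTL1 (109.8 and 1812). Among BMP targets, ID2 measured 71.1 and 776 (178 and 1149) and ID3 288 and 1477 (299.8 and 1262), whereas ID1 measured 1150.5 and 607 (863 and 858) and did not pass.

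Wnt pathway genes at least 2-fold apart numbered 7 in each direction of 44 measured (15.9%, against 11.0% and 11.2% over all genes). The same counts held on both pairs, where the shares over all genes were 7.79% and 8.46%. TLE4, a Groucho co-repressor, measured 913 in A375 against 12.3 in SK-MEL-28 (881 and 21.3), 28.5-fold with the floor. DKK3 measured 257 and 16.9 (118 and 17.8), and the receptor FZD2 290.4 and 70.7 (91.4 and 29.2). SK-MEL-28 was higher for the co-receptor KREMEN1 (48.0 and 234), for RNF43, a ligase that removes Wnt receptors (39.4 and 119), and for TCF7L1 (17.8 and 115). LGR4 also was (36.4 and 112), but in 1 of its 2 probe sets.

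In the Notch, Hedgehog and Hippo list, 11 of 41 (26.8%) were at least 2-fold higher in A375 and 6 (14.6%) higher in SK-MEL-28. The shares over all genes were 11.0% and 11.2%. NOTCH1 measured 279 in A375 against 57.5 in SK-MEL-28 (300.2 and 63.0), but the Notch target HEY1 measured 171 and 2025 (691 and 3953). Genes tied to YAP and TAZ, the effectors of the Hippo pathway, included 3 that were higher in A375. ANKRD1 measured 193 and 38.0 (35.4 and 7.57), CCN1 2859 and 920.2 (1228 and 78.2), and AJUBA, a LIM protein that restrains the Hippo kinases, 1379.9 and 149 (922 and 160.2). These 5 genes passed.

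Cytokine and NF-kB genes were led by a receptor. IL13RA2, a decoy receptor for IL-13, measured 9961 in A375 against 64.7 in SK-MEL-28 (11566 and 33.8), a ratio of 154 and a limma difference of 7.84 ± 0.33 with an adjusted p of 0.0028. Of 48 measured genes, 15 (31.2%) were at least 2-fold higher in A375 and 12 (25%) higher in SK-MEL-28, and 13 and 7 on both pairs. Shares over all genes were 11.0% and 11.2%, and 7.79% and 8.46% on both pairs. IL11, an IL-6 family cytokine, measured 1879 and 18.4 (156 and 16.5), IL1A 349 and 9.88 (1237 and 9.17), and IL24 757 and 90.0 (2464 and 97.2). SK-MEL-28 was under 32 on both arrays for IL11 and IL1A, whose ratios with the floor were 58.7 and 10.9. SK-MEL-28 was higher for IL1RAP, the IL-1 receptor accessory chain (237 and 2292), and for IL16 (26.4 and 341). The differences of the 3 IL16 probe sets ran from -3.69 to -0.08. CXCL8, the neutrophil chemokine IL-8, measured 331 and 2818 under control siRNA but 818 and 351 on the second pair, and it did not pass (limma adjusted p = 0.58).

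AP-1 factors, dimers of JUN and FOS proteins, bind TGANTCA, where N is any base. These letters, the same read on either strand, were in 15 of 100 windows of genes at least 16-fold higher in A375 (15%). They were in 14 of 190 windows of genes at least 16-fold higher in SK-MEL-28 (7.37%) and in 776 of 16059 over all genes (4.83%). A gene can have several windows. Counted by gene, the match was in 12 of 73 for A375, 14 of 101 for SK-MEL-28 and 720 of 11046 over all genes. The lines were thus closer by gene than by window. Among genes at least 2-fold apart the shares of windows were 6.09% for A375 and 6.23% for SK-MEL-28, so the order seen at 16-fold was not seen there. In the dedifferentiated and invasive list they were in 6 of 75 windows (8%), and in the melanosome list in 5 of 52 (9.62%). The AP-1 gene FOSL1 measured 1001 in A375 against 492 in SK-MEL-28 (908 and 629), and JUN 609.5 and 788 (1137 and 569.9), and neither passed (limma adjusted p of 0.062 and 0.59). The last 160 bases before the starts of IL11 (chr19:55370464-55370623, minus strand) and IL1A (chr2:112784494-112784653, minus strand) are printed because both cytokines were near the floor in SK-MEL-28 and over 150 on every A375 array, with the match in capitals. It began 96 bases before the start in IL11 and 12 in IL1A.
IL11: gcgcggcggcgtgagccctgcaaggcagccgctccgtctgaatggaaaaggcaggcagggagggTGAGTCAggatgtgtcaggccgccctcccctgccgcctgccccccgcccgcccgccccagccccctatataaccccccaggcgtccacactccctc
IL1A: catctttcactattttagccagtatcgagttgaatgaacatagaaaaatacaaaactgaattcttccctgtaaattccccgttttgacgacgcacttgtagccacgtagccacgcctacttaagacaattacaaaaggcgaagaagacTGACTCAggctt

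Antigen presentation and interferon genes went both ways. Of 56 measured, 12 (21.4%) were at least 2-fold higher in A375 and 10 (17.9%) higher in SK-MEL-28, against 11.0% and 11.2% over all genes. HLA-DRA, a chain of the class II molecule, measured 3168 in A375 against 418 in SK-MEL-28 (2820.4 and 426), and HLA-DRB1 2748 and 593 (3020.1 and 538). The invariant chain gene CD74 measured 1588 and 339 (2049 and 381), with differences from 0.04 to 2.23 over its 3 probe sets. Among class II genes HLA-DQB1 lay on the other side at 441 and 702 (194 and 292), but did not pass (limma adjusted p = 0.070). The class I genes B2M (9054 and 8039) and HLA-B (3559 and 2804) were less than 2-fold apart and did not pass, and the class I relative HLA-F was higher in SK-MEL-28 at 817 and 1967 (860.3 and 2368). Interferon-induced genes went either way. IFITM2 (2228 and 261), IFITM3 (3084 and 471) and MX2 (457 and 43.7) were higher in A375, and BST2 (28.3 and 422) and IFI6 (251 and 1089) were higher in SK-MEL-28. CD274, the PD-L1 gene, measured 118 and 104 (111 and 63.8) and did not pass. Probe sets for close relatives, such as the HLA-DR genes, IFITM2 and IFITM3, or the MAGE and SPANX families, may read each other's transcripts, which was not tested.

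Of 37 cancer-testis antigens with a probe set, germ cell genes that tumours express, 22 reached the level minimum, which 1 line alone can bring about. Of these, 10 (45.5%) were at least 2-fold higher in A375 and 4 (18.2%) higher in SK-MEL-28. For all genes the shares were 11.0% and 11.2%. The median was 0.55, but 0.21 with no level minimum. On both control arrays 13 of the 37 were under 32. MAGEC2 measured 1995 and 15.3 (1699.7 and 19.0), MAGEA11 511 and 9.44 (414 and 7.62), MAGEA4 3877 and 267 (4065 and 318), and CTAG2 967 and 49.7 (960.4 and 57.4). All were high on both A375 arrays. In the other direction, MAGEC1 measured 30.6 and 541 (25.8 and 405), and PRAME, an antigen common in melanoma, 940.3 and 2644 (523 and 2204).

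Of 72 measured surface antigens, 13 (18.1%) were at least 2-fold higher in A375 and 24 (33.3%) at least 2-fold higher in SK-MEL-28. That compares with 11.0% and 11.2% over all genes. Membrane peptidases exchanged sides. ANPEP (CD13), an aminopeptidase, measured 889 in A375 against 15.7 in SK-MEL-28 (1046 and 24.9), and MME (CD10), a neutral endopeptidase, 33.7 and 1250.4 (49.2 and 1303). PLXNC1, a semaphorin receptor of melanocytes, measured 60.8 and 2409 (25.6 and 1944), and CD200, an inhibitory ligand for myeloid cells, 66.1 and 1789 (25.9 and 2221). ENTPD1 (CD39), which breaks down extracellular ATP, measured 37.4 and 628 (45.4 and 396), and P2RX7, a channel that ATP opens, 11.5 and 398 (7.95 and 218). All 4 were higher on both SK-MEL-28 arrays. PROM1 (CD133) measured 7.99 and 277 (16.3 and 269.5), with both A375 arrays under 32. CD44, the hyaluronan receptor, measured 5825 and 3083 (4812 and 3396), a gap under 2-fold that passed, with 9 of 10 probe sets higher in A375.

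Of 35 measured ganglioside and sialylation genes, 13 (37.1%) were at least 2-fold higher in SK-MEL-28 and 3 (8.57%) at least 2-fold higher in A375. For all genes these shares were 11.2% and 11.0%. ST8SIA1, the GD3 synthase that makes the main ganglioside of melanoma, measured 6.34 in A375 against 527 in SK-MEL-28 (5.06 and 512), 16.5-fold with the floor, with a limma difference of -6.52 ± 0.16 and an adjusted p of 0.0022. Other sialyltransferases higher in SK-MEL-28 were ST3GAL6 (29.8 and 1131), ST6GALNAC2 (36.6 and 623) and ST6GAL1 (214 and 1885). ST8SIA4, which makes polysialic acid, was higher in A375 at 249 and 11.8 (316 and 46.0). Of the proteins that break sphingolipids down, SK-MEL-28 was higher for the ceramidase ASAH1 at 512 and 6825 (813 and 5183) and the activator GM2A at 198 and 1939.7 (184 and 1659.6).

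Many collagens were higher in A375, while the enzymes that modify and crosslink them went both ways. Of 29 measured genes of the list, 16 (55.2%) were at least 2-fold higher in A375 and 4 higher in SK-MEL-28, with a median of 1.16 (1.21 on the second pair), 15 and 3 on both pairs. COL4A1 and COL4A2 encode the main chains of basement membrane collagen IV. COL4A1 measured 3174 and 46.6 (2665 and 24.5) and COL4A2 4798 and 69.1 (3881 and 31.7), with limma differences of 6.43 ± 0.24 and 6.53 ± 0.27, each with an adjusted p of 0.0028. COL13A1, a membrane collagen, measured 906 and 22.1 (775 and 23.8), and the fibrillar COL5A2 1232 and 50.5 (732 and 27.2). COL6A1 measured 789 and 62.2 (886 and 60.8), with 4 of its 5 probe sets higher in A375. COL11A1, another fibrillar collagen, ran the other way at 11.3 and 1841 (13.5 and 1434), 57.5-fold with the floor. Among the enzymes, LOXL4 was higher in A375 at 2321 and 35.6 (1569 and 43.1), but its other probe set differed by only 0.17. LOX (5.10 and 644) and the lysyl hydroxylase PLOD2, at 913 and 2475 (481 and 1962), were higher in SK-MEL-28.

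Matrix glycoproteins and proteoglycans were apart in both directions, 22 of 63 (34.9%) at least 2-fold higher in A375 and 16 (25.4%) higher in SK-MEL-28. On both pairs 19 and 12 were so. Shares over all genes were 11.0% and 11.2%, and 7.79% and 8.46% on both pairs. NID1, which links laminin to collagen IV, measured 1121 in A375 against 21.4 in SK-MEL-28 (1185 and 16.4). TGFBI, an adhesive protein induced by TGF-beta, measured 4583 and 75.6 (4855 and 31.2), and THBS1, thrombospondin 1, 3529.9 and 265 (3246 and 154). SK-MEL-28 in turn was higher for FN1, fibronectin, at 2942 and 18622 (2007 and 16599), and for the laminin chain LAMA1 at 12.6 and 995 (18.1 and 584). SPP1, osteopontin, measured 140.3 and 3448 (717 and 3746). HAS2, which makes hyaluronan, measured 23.0 and 866 under control siRNA but 181 and 559 on the second pair, and did not pass (limma adjusted p = 0.069). IGF-binding proteins differed by member: IGFBP5 (532 and 10.05), IGFBP6 (830.1 and 32.1) and IGFBP2 (618 and 39.9) were higher in A375, and IGFBP7 (395 and 3787) in SK-MEL-28. SPARC measured 8519 and 11693 (12144 and 10788) and did not pass.

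Of 57 measured proteases and inhibitors, 25 (43.9%) were at least 2-fold higher in SK-MEL-28, 17 of them on both pairs, and 6 (10.5%) in A375. All genes together gave 11.2% and 11.0% under control siRNA. Lysosomal cathepsins made up part of this group. CTSK measured 139 and 1879.6 (80.9 and 1682), CTSB 1208 and 7397 (2303 and 9830.4), CTSD 185 and 1141 (304 and 1019.6) and CTSH 151 and 1409 (67.1 and 1608). CTSC lay on the other side at 2320.3 and 1823 (3429 and 1122) and did not pass. MMP2, a gelatinase that cuts collagen IV, was the member with the widest gap towards A375 at 1479 and 51.5 (1980.3 and 37.1). ADAMTS12, another metalloprotease, measured 915 and 33.2 (731 and 42.1), in 1 of its 2 probe sets. MMP8, neutrophil collagenase, measured 107 and 1517 (40.1 and 502). MMP1, interstitial collagenase, measured 103 and 451 under control siRNA but 4284 and 324 on the second pair, and MMP14 399 and 1216 (681 and 1118). Neither MMP1 nor MMP14 passed. The inhibitor TIMP3 passed at 2678 and 4472 (2217 and 5715), and TIMP1, at 4864 and 6024 (9121 and 7631), did not.

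Integrins were apart by chain, 7 of 29 (24.1%) at least 2-fold higher in A375 and 6 (20.7%) higher in SK-MEL-28. The shares over all genes were 11.0% and 11.2%. A375 was higher for the collagen-binding ITGA1 (233 and 30.8) and ITGA2 (867 and 258), the laminin-binding ITGA3 (381 and 81.4) and the fibronectin-binding ITGA5 (303 and 108). FERMT1, kindlin 1, which activates integrins, measured 510.3 and 29.8 (1456 and 34.8). SK-MEL-28 was higher for ITGA9 (40.2 and 243), ITGA7 (179 and 584) and ITGB3 (327 and 916), the last in 5 of its 6 probe sets, and for ITGAV, its partner, at 1362 and 2467 with a gap under 2-fold. The common beta chain ITGB1 measured 4976 and 5488 (7006 and 5814) and did not pass. ITGB8 measured 1491 and 5470.5 but 1776 and 2412 on the second pair and did not pass either.

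Of 49 cadherins and other adhesion genes, 10 (20.4%) were at least 2-fold higher in A375 and 9 (18.4%) higher in SK-MEL-28. The shares over all genes were 11.0% and 11.2%. CDH2, N-cadherin, measured 859 in A375 against 369.6 in SK-MEL-28 (743 and 427). CDH1, E-cadherin, the cadherin of melanocytes, was under the level minimum at 6.04 and 59.2 (5.64 and 56.0), so it was not tested. CDH3, P-cadherin, measured 45.5 and 248 (41.8 and 309). NRCAM (74.3 and 1335), ICAM1, a ligand of leukocyte integrins (231 and 1521), and MCAM, the melanoma cell adhesion molecule (1418 and 4705), were higher in SK-MEL-28, and FLRT3 (995 and 141) and CDH12 (146 and 9.88) in A375. The gap-junction gene GJB1 was likewise higher in SK-MEL-28 at 134 and 767 (178 and 943). Of these adhesion genes, all but CDH1 were tested and passed.

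**Figure D5:**
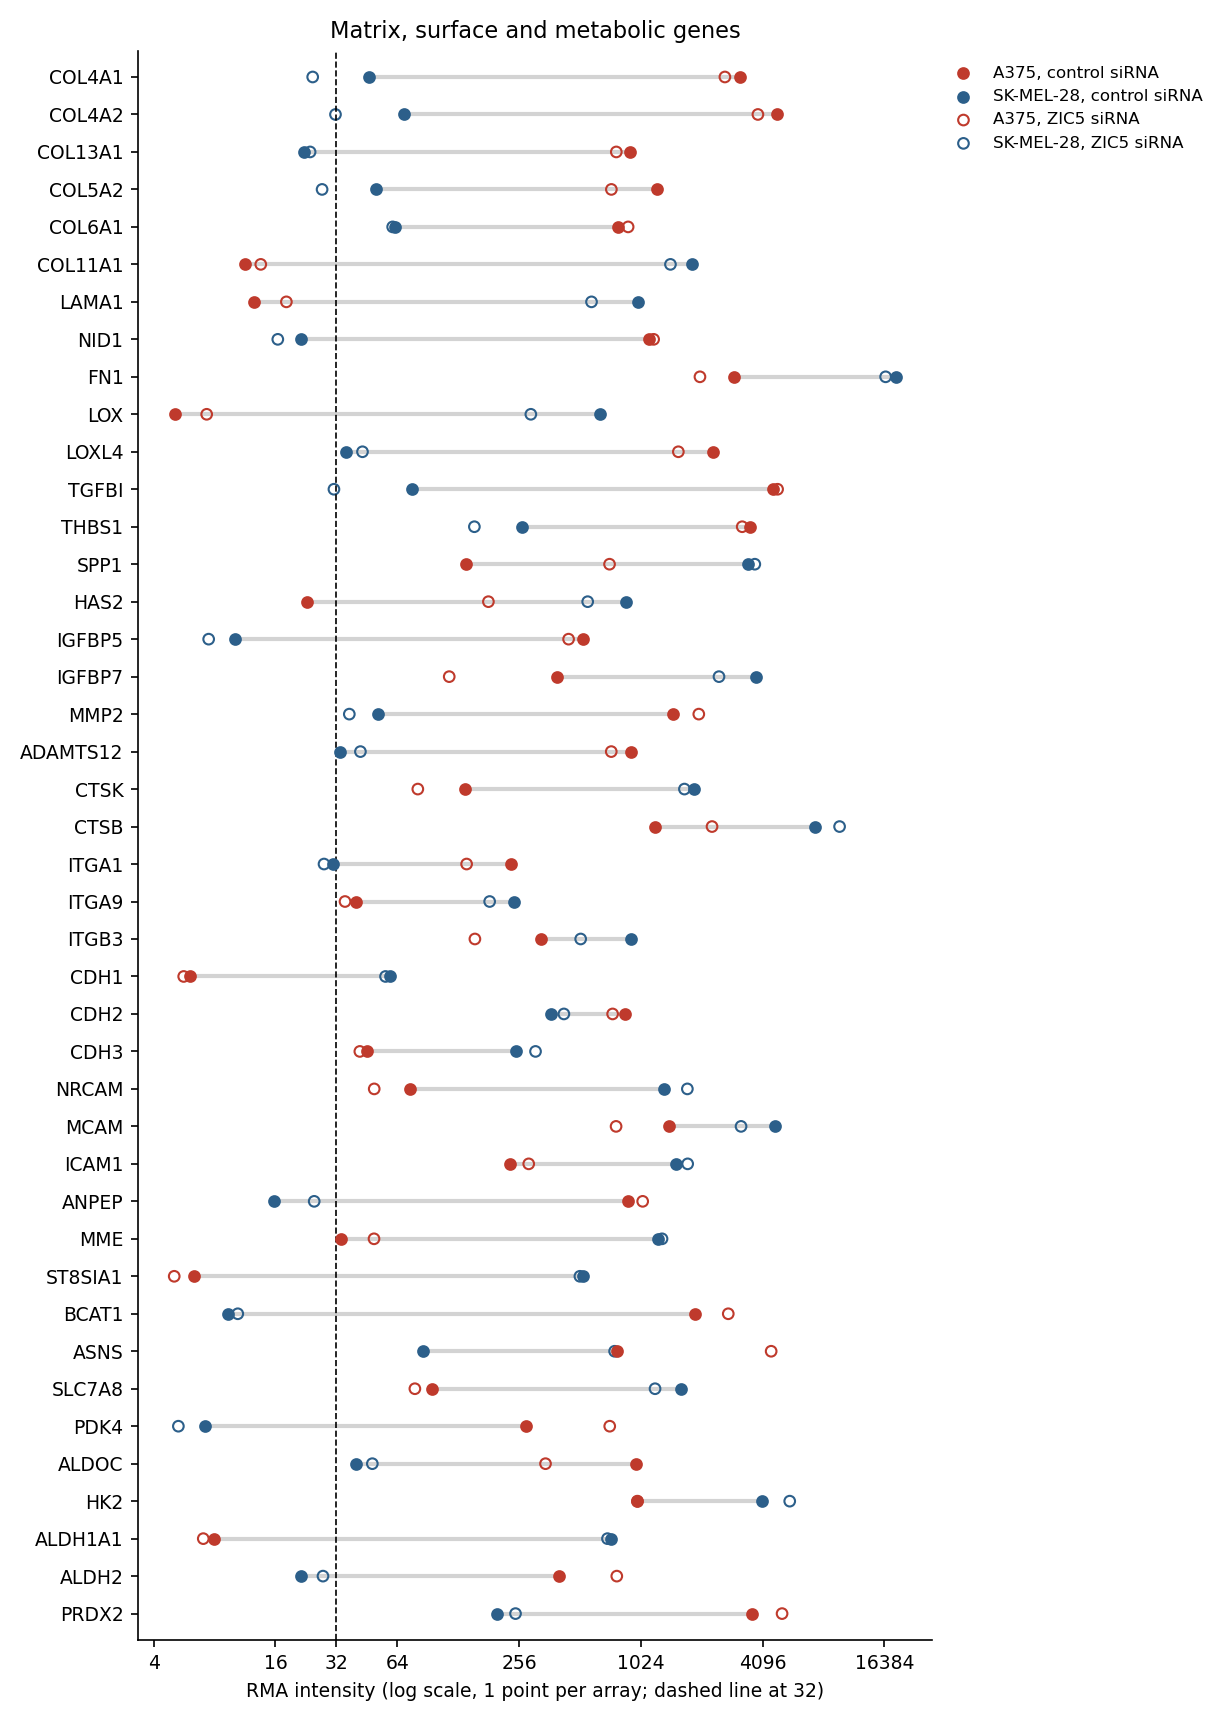
RMA intensity (log axis) of matrix, surface and metabolic genes on each of the 4 arrays; filled points are control siRNA, open points ZIC5 siRNA, and a line joins the 2 control arrays. COL4A1, COL4A2, NID1 and BCAT1 are high in A375, and COL11A1, LAMA1, ST8SIA1 and ALDH1A1 are high in SK-MEL-28, with the lower line at or under 32 for several of them.

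Genes of the cytoskeleton, with S100 and annexin proteins, included some of the widest gaps. Of 38 measured S100, annexin and intermediate filament genes, 12 (31.6%) were at least 2-fold higher in A375 and 7 (18.4%) higher in SK-MEL-28. The same counts held on both pairs. For all genes the shares under control siRNA were 11.0% and 11.2%. S100A4, a calcium-binding protein tied to motility, measured 5013 in A375 against 44.4 in SK-MEL-28 (6110.1 and 39.5), with a limma difference of 7.05 ± 0.20 and an adjusted p of 0.0024. S100A2 measured 2813 and 97.9 (830.5 and 56.3). The keratins KRT80 (1325 and 40.3) and KRT7 (556 and 20.9, in 1 of 2 probe sets) were higher in A375. ANXA3 measured 5.74 and 433 (4.44 and 496), and MAP2, a microtubule protein of neurons, 9.32 and 228 (17.8 and 174). VIM, vimentin, differed by less than 2-fold at 14817 and 18772 (12844 and 18584), with 1 of 2 probe sets on that side.

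Actin regulators were also divided, 9 of 47 (19.1%) at least 2-fold higher in A375 and 12 (25.5%) higher in SK-MEL-28. The shares over all genes were 11.0% and 11.2%. FSCN1, fascin, which bundles actin in filopodia, measured 1380.4 and 23.8 (1834 and 28.1), 43.1-fold with the floor. TPM2, a tropomyosin, measured 2086 and 204 (2792 and 185). SK-MEL-28 was higher for CAPG, a protein that caps actin filaments, at 448 and 9165 (406 and 11393), and for LCP1, plastin 2, at 36.1 and 408 (57.4 and 373). ACTB measured 15028 and 17950.4 (14368 and 17639) and did not pass.

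The metabolic lists parted in both directions, with a few wide gaps. In the glycolysis and hypoxia list, 3 of 52 were at least 2-fold higher in A375 (5.77%) and 10 higher in SK-MEL-28 (19.2%). That compares with 11.0% and 11.2% over all genes. The list median was -0.37, and limma called 4 and 19. ALDOC, a brain-type aldolase, measured 968 in A375 against 39.9 in SK-MEL-28 (346 and 48.2). PDK4, a kinase that shuts off pyruvate dehydrogenase, measured 278 and 7.15 (719 and 5.30), 8.68-fold with the floor. HK2, hexokinase 2, measured 982 and 4076 (985 and 5574) on the probe set used, but only 1 of 3 probe sets had this direction. EPAS1, the hypoxia factor HIF-2 alpha, measured 48.4 and 499 (50.4 and 299). The core enzymes LDHA (11783 and 16848) and PKM (2500.4 and 3642) were under 2-fold apart, both higher in SK-MEL-28, and passed, while the glucose transporter SLC2A1 (482 and 454) did not.

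Mitochondrial and TCA cycle genes parted at shares close to those over all genes, with 8 of 59 at least 2-fold higher in A375 (13.6%) and 5 higher in SK-MEL-28 (8.47%), and 4 and 2 on both pairs. MDH2, mitochondrial malate dehydrogenase, measured 6648 in A375 against 2626 in SK-MEL-28 (7502 and 2646), and CKB, brain-type creatine kinase, 785 and 155 (717 and 147). IDH1, the cytosolic isocitrate dehydrogenase, was higher in SK-MEL-28 at 1836 and 4181 (2353 and 4707). UCP2, an uncoupling protein, measured 224 and 57.3 but 88.6 and 58.9 on the second pair and did not pass. PPARGC1A, a regulator of mitochondrial genes that MITF can induce, was under the level minimum in both lines at 15.7 and 8.50.

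Of 53 measured amino acid and one-carbon genes, 14 (26.4%) were at least 2-fold higher in A375 and 7 (13.2%) at least 2-fold higher in SK-MEL-28. With 11.0% and 11.2% over all genes, the SK-MEL-28 share was close to that of all genes. BCAT1, which transfers the amino group of branched-chain amino acids, measured 1894 in A375 against 9.32 in SK-MEL-28 (2769.7 and 10.4), 59.2-fold with the floor. Its limma difference was 7.86 ± 0.20 with an adjusted p of 0.0022, and all 4 probe sets pointed the same way. ASNS, asparagine synthetase, measured 779 and 86.0 (4512 and 759.7), and the mitochondrial folate enzyme gene MTHFD2 4219 and 1459 (6264 and 3322). PHGDH, the first enzyme of serine synthesis, measured 1092 and 1114 (1859 and 2434) and did not pass. Transporters differed by member, with SLC38A1 at 2091 and 125 (3038 and 200.1) against SLC7A8 at 95.0 and 1623 (78.3 and 1204) and SLC1A4 at 236 and 3417 (768 and 4201). SAT1, which acetylates polyamines for export or breakdown, measured 388 and 5057 (868 and 3693). GLUL, glutamine synthetase, measured 346 and 46.8 (163 and 21.8), in 1 of 2 probe sets.

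Lipid and sterol genes were apart in both directions, 11 of 59 (18.6%) at least 2-fold higher in A375 and 14 (23.7%) higher in SK-MEL-28. The shares over all genes were 11.0% and 11.2%. By limma 9 and 18 passed. APOD, a lipocalin that carries small lipids, measured 36.9 in A375 against 2577 in SK-MEL-28 (48.2 and 4244). The fatty acid elongases ELOVL7 (26.9 and 384) and ELOVL2 (18.8 and 243) were higher in SK-MEL-28, each with both A375 arrays under 32. A375 was higher for the nuclear receptors PPARG (525 and 46.7) and NR1H3 (186 and 34.1) and for ABCA1, a cholesterol exporter that NR1H3 induces (84.1 and 9.38, 2.63-fold with the floor). These 6 genes passed.

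Of 63 measured redox and xenobiotic genes, 9 (14.3%) had at least a 2-fold higher level in A375 and 10 (15.9%) had one in SK-MEL-28, against 11.0% and 11.2% over all genes. Aldehyde dehydrogenases exchanged sides: ALDH1A1, which makes retinoic acid, measured 7.99 and 729 (7.04 and 701), and ALDH2, the mitochondrial form, 402 and 21.5 (779 and 27.5). PRDX2, a peroxidase of the cytosol, measured 3631 and 199 (5109 and 246) in the same direction in all 4 probe sets. ABCB5, a transporter that marks a subset of melanoma cells, measured 31.7 and 1415 (10.4 and 346). HMOX1, heme oxygenase 1, measured 76.5 and 451 (260.4 and 972), and TXNIP, an inhibitor of thioredoxin, 196 and 954 (650.02 and 1209.97). Of these 6 genes only TXNIP did not pass (limma adjusted p = 0.055).

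Of 64 cell cycle, p53 and apoptosis genes, 12 (18.8%) were at least 2-fold higher in A375 and 8 (12.5%) higher in SK-MEL-28. That compares with 11.0% and 11.2% over all genes, so the SK-MEL-28 share was close to that of all genes. Cyclin-dependent kinase inhibitors differed by member. CDKN1A (p21) measured 1326 in A375 against 156 in SK-MEL-28 (2945 and 319), and CDKN1C (p57) 874 and 63.8 (1057 and 79.1). CDKN2A, the INK4A and ARF locus, measured 62.8 and 1049.8 (67.2 and 1081), 16.7-fold higher in SK-MEL-28, while MTAP, its neighbour, measured 1743 and 406 (1596 and 429), with 4 of 5 probe sets higher in A375. Other genes that p53 can induce went both ways. A375 was higher for MDM2 at 1047 and 496 (1661 and 676), for DDB2 at 505 and 118 (555 and 154) and for FAS, a death receptor, at 204 and 48.0 (485 and 55.0), and SK-MEL-28 for ZMAT3 at 319 and 792 (366 and 727), for PERP at 1754 and 3376 and for GDF15 at 52.7 and 3348. CASP1, the inflammasome caspase, measured 52.4 and 1208 (50.0 and 1234). All these genes passed, whereas TP53I3, another p53 target, did not at 669 and 384 (319 and 263). CDK4 was 2.03-fold higher in A375 at 3839.8 and 1892, and RB1 and CDK6 did not pass.

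Of 47 measured HOX and patterning genes, 12 (25.5%) were at least 2-fold higher in A375 and 7 (14.9%) at least 2-fold higher in SK-MEL-28. For all genes the shares were 11.0% and 11.2%. HOXB8 measured 256 in A375 against 21.6 in SK-MEL-28 (225 and 18.4), HOXB3 511 and 130.1 (388 and 90.7), and HOXC10 356 and 77.3 (441 and 75.6). TBX3, a repressor in limb and melanocyte development, measured 1217 and 180.3 (1313 and 264), with 3 of 4 probe sets higher in A375. HOXD4 (30.7 and 222) and LHX8 (87.2 and 816) were higher in SK-MEL-28. Each of these 6 genes passed.

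Some of the widest gaps lay outside the lists. In A375, GPRC5A, an orphan receptor induced by retinoic acid, measured 2289 against 24.6 (4469 and 25.9), and SYTL5, a synaptotagmin-like partner of RAB27A, 2928 against 14.5 (2816 and 10.2). GTSF1, a gene of germ cell small RNA silencing, measured 2687 and 14.96 (2929 and 9.94), and the long non-coding RNAs LINC01029 and LINC01419 measured 2851 and 12.2 (2107 and 10.5) and 2619 and 4.64 (905 and 4.15). SK-MEL-28 was under 32 on both arrays for all 5, and with the floor their ratios ran from 71.5 for GPRC5A to 91.5 for SYTL5. In SK-MEL-28, PEG10, an imprinted gene derived from a retrotransposon, measured 33.5 and 3449 (15.3 and 5068), APOLD1 37.4 and 2844 (40.5 and 2304), CELF2, an RNA-binding splicing factor, 22.7 and 2049.7 (31.9 and 1787), and the non-coding LINC00520 29.5 and 4472 (159 and 3237). All 9 passed.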

How the data were processed

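The deposited values are linear RMA intensities, 1 for each probe set on each array, from Affymetrix Expression Console (named in the submitters' processing notes); versions are not given in the sources used here. RNA was isolated with a ReliaPrep kit, per the labels. Groups came from the labels. Of 54613 probe sets, 41091 name 1 gene in the platform annotation given with the data, 1801 several (not used) and 11721 none; entrez IDs matched RefSeq for 41037. The log2 values were used with no further scaling. The size rule was 2-fold. The line difference was tested with limma 3.58.1 in R 4.3.3 (lmFit, then eBayes with trend, line plus siRNA block, Benjamini-Hochberg over 13794 genes, threshold 0.05); the fit was tested on simulated data. No replicates, detection calls or read depth enter, so the number of arrays limits the precision.

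Members and the 37 lists were chosen with earlier results of these data known. Named genes were the 15 highest and 15 lowest control differences with a floor of 32, up to 8 members of each list with the widest control difference, a set of anchors, and further genes chosen after their values were seen. Genes on the Y chromosome and XIST were not named. Alternatives were the ZIC5 siRNA arrays, level minimums of none and 7, the floor, the mean of probe sets, log2(intensity + 16), equal medians, quantile and cyclic loess scaling, a 4-fold rule, no siRNA block and eBayes without trend. Python 3.11.15, numpy 2.4.6, pandas 2.3.3 and matplotlib 3.10.9 were used.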

Additional observations from a re-analysis of the deposited data

Results flagged for a closer look

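In 8 genes the line difference was at least 2-fold towards SK-MEL-28 under control siRNA and at least 2-fold towards A375 on the ZIC5 siRNA arrays. The change of the line difference between the pairs was not tested, since each group held 1 array. CXCL8 (IL-8) differed by -3.09 and then 1.22 (log2), MMP1 (interstitial collagenase) by -2.13 and 3.72, and EGR1 (an immediate-early factor) by -2.06 and 1.96. For MMP1 and EGR1 the A375 arrays were the farther apart, at 103 and 4284 for MMP1 and 186 and 4152 for EGR1. For CXCL8 the SK-MEL-28 arrays were, at 2818 and 351. CREB5, a CREB-family factor, differed by -1.30 and 1.50, KBTBD8, a ubiquitin ligase adaptor, by -1.26 and 1.11, and VLDLR, a lipoprotein and reelin receptor, by -1.17 and 1.22. CAB39L differed by -1.16 and 1.25 and PTPRZ1, a receptor phosphatase, by -1.11 and 1.14, but both were under 32 in A375 under control siRNA. With intensities under 32 set to 32 their control differences were -0.80 and -0.82.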

How the results depend on the processing

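At a level minimum of 7, 902 genes were at least 2-fold higher in A375, and a 4-fold rule left 426 and 544 (A375, then SK-MEL-28). Without the siRNA block limma called 1302 genes as higher in A375. List medians that moved by more than 0.39, the spread between the pairs, were, at a level minimum of 7, -1.26 for lineage factors, 1.10 for dedifferentiated and invasive genes, -1.20 for proteases and -0.72 for integrins. They were -1.83 for the melanosome list with the mean of probe sets, -3.31 for MITF-associated genes with log2(intensity + 16) and 0.46 for collagens with no level minimum. On the ZIC5 siRNA arrays they were 2.49 for dedifferentiated and invasive genes, 0.42 for MAPK genes, -0.13 for proteases, -0.68 for gangliosides, -0.48 for lipids and -0.15 for fibroblast markers. Of the named genes at least 2-fold apart, CXCL8 (1.22), EGR1 (1.96), FOS (0.42) and MMP1 (3.72) changed sign there. The causes were not tested. No list median moved past that spread under equal medians, quantile or cyclic loess scaling, or with the floor of 32. Equal medians shifts every gene by the same small amount, so it could move no list past the spread. The spread is that of single genes and is wide for a list median, so medians near 0 could change sign within it. On the ZIC5 siRNA arrays the mitochondrial median did so, from 0.08 to -0.06, and the S100 list's, from -0.06 to 0.19. At a level minimum of 7, 2 lists gave no value. The labels give no replicate numbers, and the siRNA was the block in the limma fit. Values under 32 limit ratios: with the floor, 66 of 352 named genes moved by more than the spread. The count of 0 reversed there was fixed in advance, since a floor keeps the order of the lines or makes them equal.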

Other observations

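Runs of neighbouring genes on a chromosome sometimes leaned to 1 line. Among 12775 runs of 25 neighbouring autosomal genes in RefSeq order (GRCh38.p14), the 1st and 99th percentiles of the median line difference under control siRNA were -0.90 and 0.85 (log2, A375 minus SK-MEL-28). The lowest was a run on chromosome 3 from C3orf70 to CCDC50, at -1.44 (-1.0 on the ZIC5 siRNA arrays), with 23 of 25 genes higher in SK-MEL-28. Another on chromosome 3, from PSMD6-AS2 to PDZRN3, was at -1.29 (-1.06), and a run on chromosome 6 from PHACTR1 to MBOAT1 at -1.23 (-0.95). The highest was on chromosome 12 from THAP2 to CCDC59, at 1.32 (0.89), with 23 of 25 genes higher in A375. A second run on chromosome 12, from ATP5MC2 to TMT1B, was at 0.98 (0.77). On chromosome 11 all 25 genes from ARL2 to SIPA1 were higher in A375, with a median of 0.98 (0.80). Over whole chromosomes the median was lowest on chromosome 22, at -0.46 (-0.45), and highest on chromosome 13, at 0.38 (0.34). These are descriptions of neighbouring genes, and no DNA was measured.

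Probe sets without a gene name also parted the lines. Of 11721, 3820 reached the level minimum, and of these 283 were at least 2-fold higher in A375 and 243 higher in SK-MEL-28, 13.8% together against 22.2% of named genes. On both pairs of arrays 187 and 174 were so.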
